A study of Mus musculus with 25 samples.

Results

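A set of 10 ligands and receptors by which antigen-presenting cells stimulate or restrain T cells were followed across dendritic cells and macrophages of the mouse Peyer's patch: Cd80, Cd86, Cd40, Cd274, Pdcd1lg2, Cd200, Tnfrsf4, Tnfrsf9, Tnfsf9 and Slamf1. They were taken by gene symbol from array rows that carry 1 symbol, and are 10 of the 19938 genes so named. The Peyer's patch is lymphoid tissue of the small intestine. Cells were sorted from wild-type (WT) female C57BL/6 mice aged 6 to 8 weeks, and each replicate pooled 42 mice, per the labels. All 25 arrays are Affymetrix Mouse Gene 1.0 ST arrays.

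All groups were sorted as CD11c-high after enrichment on CD11c beads. Untreated conventional dendritic cells (cDC) were MHC class II positive and BST2-. They fell into CD11b+ cDC (5 arrays), which were SIRPa+, CD11b-intermediate, CD8a- and CD4-, into double-negative (DN) cDC (3 arrays), which were SIRPa+ but CD11b-, CD8a- and CD4-, and into CD8a+ cDC (3 arrays), which were SIRPa-. LysoMac, lysozyme-expressing macrophages of the patch, were MHC class II low, SIRPa+, BST2+ and CD4+, and were split into TIM-4- (3 arrays) and TIM-4+ cells (3 arrays). CD11b+ cDC (3 arrays) and CD8a+ cDC (5 arrays) were also sorted 9 h after mice were given R848, a ligand of the RNA sensor TLR7, by gavage. No other mouse line, allele or vehicle group is named in the labels.

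CD80 and CD86 are the B7 ligands of CD28, which a T cell needs to engage beside its antigen receptor, and of the inhibitory receptor CTLA-4. CD40 receives the signal of helper T cells in dendritic cells, macrophages and B cells. Cd274 and Pdcd1lg2 encode PD-L1 and PD-L2, the ligands of the inhibitory receptor PD-1, and CD200 binds an inhibitory receptor on myeloid cells. Tnfrsf4 (OX40) and Tnfrsf9 (CD137) are TNF receptor family members best known on activated T cells, and Tnfsf9 is the ligand of CD137. SLAMF1 (CD150) is a receptor of lymphocytes and myeloid cells that binds itself. Maturing dendritic cells are known to raise several of these molecules through NF-kappaB.

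Promoter sequence was available from RefSeq (GRCm38.p6) for 7 of the 10 genes. It is shown for members whose levels moved together across the groups, namely both PD-1 ligands and both TNF receptors. In RefSeq's order on chromosome 19, Cd274 and Pdcd1lg2 have only the predicted gene Gm36043 between them. Each sequence is on the + strand and ends at the base before a transcript start, except that of Tnfrsf4, which stops before the first annotated base of the gene. Capitals mark matches to the kappaB consensus, the motif bound by NF-kappaB, to the AP-1 site TGACTCA or to the interferon-stimulated response element, searched on both strands.
Cd274, chr19:29367188-29367437: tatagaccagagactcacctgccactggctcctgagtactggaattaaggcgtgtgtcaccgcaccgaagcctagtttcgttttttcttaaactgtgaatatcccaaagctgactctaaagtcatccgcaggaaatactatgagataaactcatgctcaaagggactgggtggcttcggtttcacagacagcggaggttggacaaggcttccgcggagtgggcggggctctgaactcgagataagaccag
Pdcd1lg2, chr19:29410669-29410918: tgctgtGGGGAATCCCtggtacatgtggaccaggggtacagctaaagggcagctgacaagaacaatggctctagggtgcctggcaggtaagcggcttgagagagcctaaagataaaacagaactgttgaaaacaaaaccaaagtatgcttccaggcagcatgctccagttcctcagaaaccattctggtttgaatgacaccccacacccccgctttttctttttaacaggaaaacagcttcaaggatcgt
Tnfrsf4, chr4:156013445-156013594: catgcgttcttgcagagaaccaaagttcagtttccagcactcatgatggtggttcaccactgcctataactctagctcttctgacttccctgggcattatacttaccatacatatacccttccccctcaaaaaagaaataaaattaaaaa
Tnfrsf9, start 1, chr4:150919905-150920154: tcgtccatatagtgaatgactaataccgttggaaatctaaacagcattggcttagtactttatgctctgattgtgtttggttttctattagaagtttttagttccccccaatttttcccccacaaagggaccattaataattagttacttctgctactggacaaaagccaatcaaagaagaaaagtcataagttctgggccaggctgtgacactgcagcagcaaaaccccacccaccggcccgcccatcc
Tnfrsf9, start 2, chr4:150927749-150927998: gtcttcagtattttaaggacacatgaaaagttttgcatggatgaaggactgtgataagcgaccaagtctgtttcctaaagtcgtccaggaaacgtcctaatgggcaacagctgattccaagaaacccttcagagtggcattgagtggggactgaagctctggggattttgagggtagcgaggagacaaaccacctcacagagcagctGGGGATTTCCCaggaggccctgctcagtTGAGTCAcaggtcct

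The downstream start of Tnfrsf9 held overlapping kappaB matches at -43 to -33 and an AP-1 match at -15 to -9, counted from the start. Pdcd1lg2 held 1 kappaB match at -244 to -235. Over all 32851 windows of 250 bases in the table, 7.25% held a kappaB match, 4.46% an AP-1 match and 2.98% the interferon-stimulated element. The other 6 of the 8 windows of these genes held none of the 3 motifs. A match describes letters and says nothing of binding, and the arrays do not tell which start was used.

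The array columns do not share one row order, and their rows had to be paired before any gene could be followed. Row order split the columns in 3 sets. One held 14 untreated arrays (CD11b+ cDC, DN cDC and LysoMac), another the 3 arrays of untreated CD8a+ cDC, and the last the 8 R848 arrays, whose order the row names follow. Order-keeping alignment accepted a partner for 89.3% and 90.4% of 28939 rows of the untreated sets. For the genes of interest the accepted pairing had a posterior probability of 0.985 or more, with 2 exceptions. Cd200 had no accepted row in the 14 untreated arrays (0.706) and Slamf1 none in untreated CD8a+ cDC (0.843), so their levels there count as not measured. Every treated array lies in another set than its untreated group, so R848 and array set cannot be told apart, and the same holds for CD8a+ against other untreated cells. Array medians were 4.29 to 4.34 in the untreated CD8a+ set and 4.49 to 4.60 elsewhere. In the comparisons with that set the median of all genes lay 0.17 to 0.21 log2 units from 0, and differences there are to be read against it.

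Most markers fitted the sorted identities in most groups. Flt3, a dendritic cell growth factor receptor, was at 9.69 to 10.42 in the cDC groups and at 5.13 to 5.59 in LysoMac, while the macrophage receptor Mertk was at 8.46 to 8.84 in LysoMac and at 3.98 or lower in cDC. Xcr1, a marker of the CD8a+ lineage, was at 10.91 in untreated and 8.59 in R848 CD8a+ cDC and at 3.91 or lower in the others. Of 8 measured macrophage markers, 6 were higher and 1 lower in LysoMac than in CD11b+ and DN cDC, against 14.7% and 17.1% of all genes. Of 4 dendritic cell markers, 3 were lower there and 1 higher. Of 6 measured markers of the CD8a+ lineage (cDC1), 5 were higher and 1 lower in untreated CD8a+ than CD11b+ cDC, against 8.36% and 38.5% of all genes. Itgam, which encodes CD11b, was at 7.07 in untreated CD11b+ cDC but at 4.20 in the R848 arrays labelled CD11b+, close to the 4.21 of R848 CD8a+ cDC, so Itgam did not set the R848 arrays labelled CD11b+ apart from the CD8a+ ones. Sirpa (9.73 and 6.38) and Cd8a (6.94 and 10.53) did set R848 CD11b+ and CD8a+ cDC apart. Itgax, which encodes CD11c, was at 10.29 in untreated and 7.47 in R848 CD8a+ cDC. In CD11b+ cDC it was at 10.54 and 9.34. Levels are means of log2 signals, and in sorted populations fewer cells of a type and less RNA per cell cannot be told apart.

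**Figure D1:**
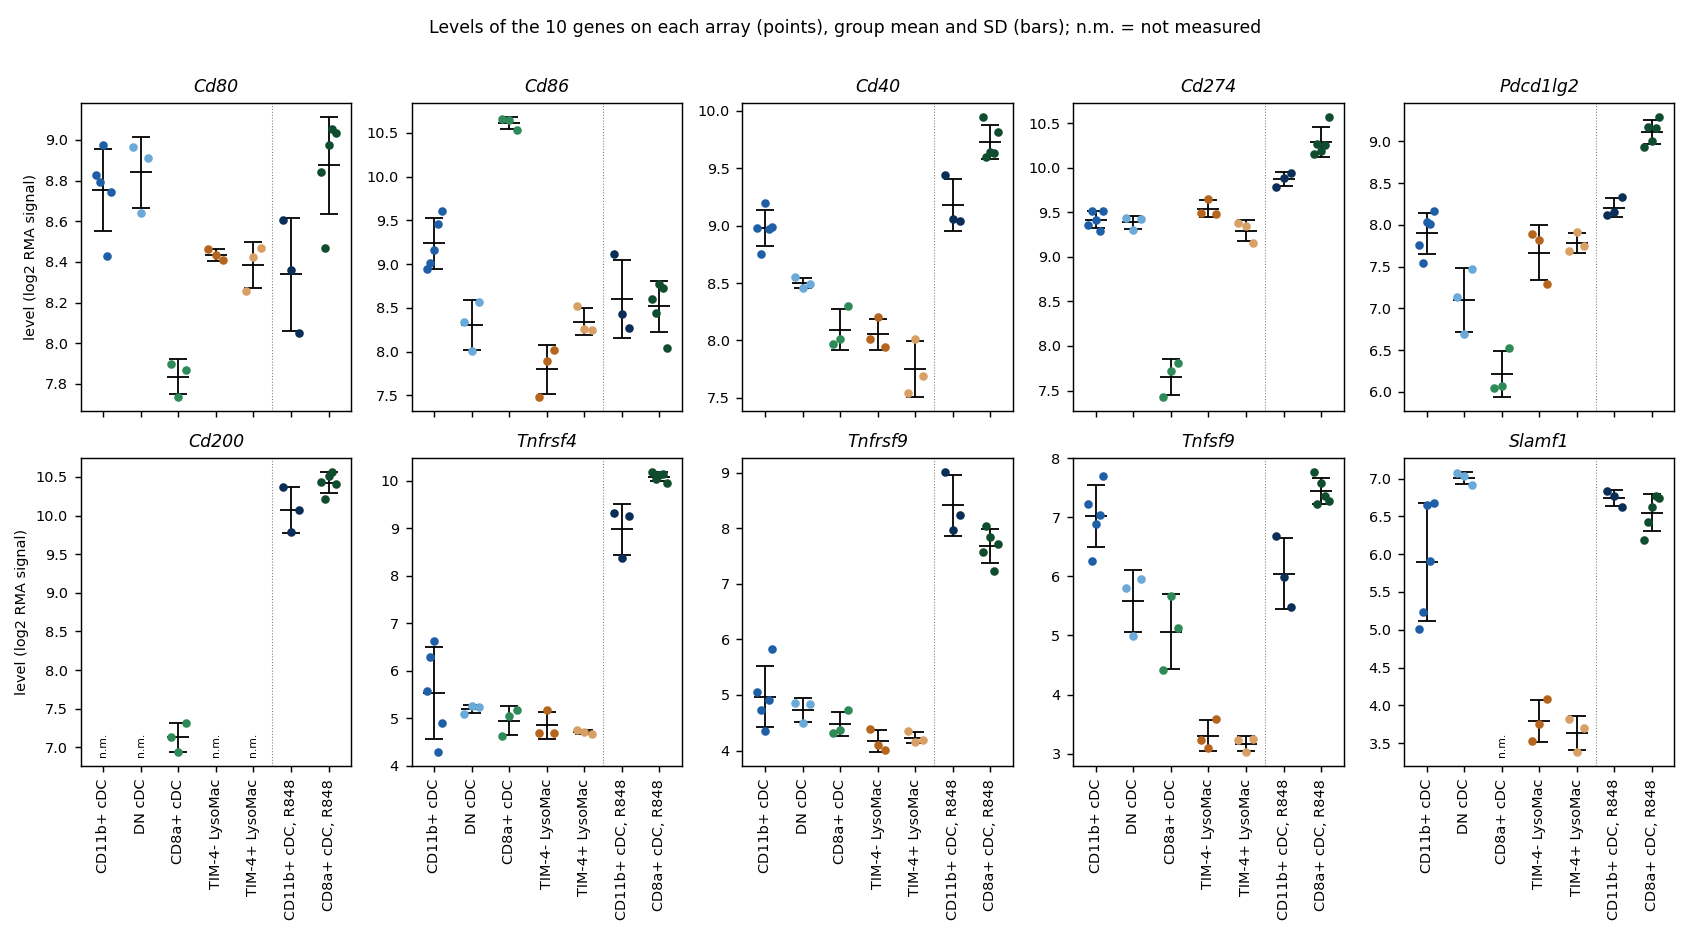
Level of each of the 10 genes on every array where it was measured (points, log2 RMA signal) in the 7 groups, without Cd200 on the 14 untreated arrays other than CD8a+ cDC and without Slamf1 on the untreated CD8a+ arrays, with group mean and SD as bars; each gene has its own axis, which does not start at 0. Tnfrsf4 and Tnfrsf9 separate the 8 R848 arrays from all untreated ones, Cd86 is highest in untreated CD8a+ cDC, and Tnfsf9 is lowest in LysoMac, as is Slamf1 among the groups where it was measured.

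Tnfrsf4 and Tnfrsf9 were low in every untreated group and high in both cDC subsets after R848. Tnfrsf4 read 5.57, 6.28, 6.62, 4.28 and 4.89 on the untreated CD11b+ arrays and 9.31, 8.36 and 9.26 after R848. On the CD8a+ arrays it read 4.61, 5.05 and 5.18 untreated and 10.18, 10.04, 10.13, 10.15 and 9.94 after R848. No treated array overlapped an untreated one in either subset. The difference was 3.45 ± 0.35 (SE) log2 units, 10.9-fold, in CD11b+ cDC (adjusted p = 9.11e-08) and 5.14 ± 0.35, 35.3-fold, in CD8a+ cDC (adjusted p = 7.13e-11). These tests come from limma over all genes, with Benjamini-Hochberg adjustment, and a gene is called at an adjusted p under 0.05. By size the Tnfrsf4 difference ranked 18 of 18600 genes in CD11b+ and 6 of 18685 in CD8a+ cDC.

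Tnfrsf9 read 5.05, 4.72, 4.34, 4.91 and 5.83 in untreated CD11b+ cDC and 9.01, 7.97 and 8.24 after R848. In CD8a+ cDC it read 4.32, 4.38 and 4.72 untreated and 7.58, 8.04, 7.84, 7.24 and 7.71 after R848. Here too all treated arrays lay above all untreated ones. The rise was 3.44 ± 0.25 (10.8-fold, adjusted p = 9.34e-10) in CD11b+ cDC and 3.21 ± 0.25 (9.23-fold, adjusted p = 8.28e-10) in CD8a+ cDC. The response of Tnfrsf4 was larger in CD8a+ cDC by 1.69 ± 0.49 (adjusted p = 0.0117), whereas for Tnfrsf9 the difference of responses was -0.23 ± 0.35, with a 95% interval of -0.98 to 0.52 (adjusted p = 0.642). Among the treated cells Tnfrsf4 was higher in CD8a+ cDC by 1.11 ± 0.35 (adjusted p = 0.0351), a call lost without replicate 2 or replicate 3 of R848 CD11b+ (adjusted p = 0.265 and 0.0535) and without replicates 1 to 4 of R848 CD8a+ in turn (0.0528 to 0.0612). Tnfrsf9 was at -0.73 ± 0.25 there (adjusted p = 0.0635), and was called without CD11b+ replicate 2 (adjusted p = 0.0334) or CD8a+ replicate 2 (0.0448).

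Among untreated groups the mean of Tnfrsf4 ran from 4.71 in TIM-4+ LysoMac to 5.53 in CD11b+ cDC, and that of Tnfrsf9 from 4.17 in TIM-4- LysoMac to 4.97 in CD11b+ cDC. No neighbours in either order were called different. LysoMac against CD11b+ and DN cDC gave -0.65 ± 0.19 for Tnfrsf9 (adjusted p = 0.00992) and -0.58 ± 0.26 for Tnfrsf4 (adjusted p = 0.0962). Tnfrsf9 read 4.01 to 4.39 on the LysoMac arrays, below the array medians of that set (4.49 to 4.60). Without detection calls the low untreated levels may be background, so the sizes of these differences and of the rises after R848 may be understated. The Tnfrsf4 difference was called without untreated CD11b+ replicate 4 (-0.74, adjusted p = 0.00844), the lowest array of its group at 4.28.

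Both receptors are also T cell genes, and lymphocyte markers moved with R848. Of 7 measured T cell markers 6 fell in CD11b+ cDC. The mean of the 5 measured on all arrays was 5.31 to 5.96 untreated and 4.42 to 4.49 treated there. In CD8a+ cDC all 5 measured T cell markers rose, with that mean at 4.01 to 4.18 untreated and 4.48 to 5.56 treated. B cell markers rose for 5 of 5 measured genes in CD11b+ cDC, with their mean over 4 genes at 5.59 to 6.32 untreated and 7.38 to 8.07 treated. In CD8a+ cDC 4 of 5 rose, from 4.38 to 4.96 up to 6.02 to 6.88. NK cell and ILC markers had 2 of 5 higher and 2 lower in CD11b+ cDC and 3 of 5 higher in CD8a+ cDC. Of all genes, 17.2% rose and 22.8% fell in CD11b+ cDC. In CD8a+ cDC 41.9% of all genes rose and 14.4% fell, with a median over all genes of 0.19. Levels of the defining genes were 5.25 and 5.88 for Cd3e, and 9.37 and 7.86 for Cd79a, in treated CD11b+ and CD8a+ cDC. CD40, CD80, CD86 and CD200 are known on B cells as well, and the part of lymphocyte RNA in the results on R848 was not tested.

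PD-1 ligands set untreated CD8a+ cDC apart. Cd274 read 7.43, 7.72 and 7.81 there, and 9.36, 9.52, 9.41, 9.29 and 9.51 in CD11b+ cDC. It read 9.44, 9.31 and 9.42 in DN cDC, 9.50, 9.65 and 9.48 in TIM-4- and 9.38, 9.35 and 9.16 in TIM-4+ LysoMac. The CD8a+ arrays lay below every other array, and the 4 other untreated groups stayed within 9.16 to 9.65. Against CD11b+ cDC the difference was -1.76 ± 0.10 (adjusted p = 3.88e-12), and LysoMac exceeded CD8a+ cDC by 1.76 ± 0.09 (adjusted p = 6.54e-13). LysoMac and the CD11b+ and DN cDC differed by 0.01 ± 0.07 (95% interval -0.14 to 0.17, adjusted p = 0.915).

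After R848, Cd274 read 9.79, 9.88 and 9.94 in CD11b+ cDC and 10.15, 10.26, 10.19, 10.25 and 10.57 in CD8a+ cDC. CD8a+ cDC thus went from the lowest group to the highest, with no overlap with CD11b+ cDC on either side. The rise was 2.63 ± 0.10 (6.20-fold, adjusted p = 3.96e-15) in CD8a+ cDC and 0.45 ± 0.10 (1.37-fold, adjusted p = 0.000787) in CD11b+ cDC. The responses differed by 2.18 ± 0.14 (adjusted p = 4.72e-10). This difference and that between untreated subsets share the untreated arrays.

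Pdcd1lg2, too, was lowest in untreated and highest in treated CD8a+ cDC. It read 6.04, 6.07 and 6.53 in untreated CD8a+ cDC, 7.13, 6.70 and 7.47 in DN cDC and 7.76, 7.54, 8.04, 8.01 and 8.16 in CD11b+ cDC. After R848 it read 8.94, 9.17, 9.00, 9.17 and 9.30 in CD8a+ cDC and 8.12, 8.16 and 8.33 in CD11b+ cDC. Again CD8a+ arrays were the lowest untreated and the highest treated, while treated and untreated CD11b+ arrays overlapped. The rise was 2.90 ± 0.17 (7.47-fold, adjusted p = 5.43e-12) in CD8a+ cDC, and the CD11b+ value was 0.30 ± 0.17 (95% interval -0.05 to 0.65, adjusted p = 0.155, and 0.0314 after cyclic loess). The responses differed by 2.60 ± 0.24 (adjusted p = 8.17e-08). Both LysoMac groups lay near CD11b+ cDC, with means of 7.67 (TIM-4-) and 7.78 (TIM-4+), and DN cDC lay below CD11b+ cDC, at -0.80 ± 0.17 (adjusted p = 0.00474). Over the 7 group means Cd274 and Pdcd1lg2 correlated at r = 0.918, a description of means that share arrays and scaling.

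Cd200 was measured in 3 groups. It read 7.14, 6.94 and 7.31 in untreated CD8a+ cDC, 10.44, 10.21, 10.51, 10.56 and 10.41 after R848, and 10.38, 9.79 and 10.07 in R848 CD11b+ cDC. All treated arrays lay above the untreated ones. In CD8a+ cDC the rise was 3.30 ± 0.14 (9.84-fold, adjusted p = 1.61e-09), from a fit without the 14 arrays of the other untreated set. CD8a+ and CD11b+ cDC after R848 differed by 0.35 ± 0.14 (adjusted p = 0.141, and 0.0314 without CD11b+ replicate 1). Taking its row through the untreated CD8a+ set, a pairing chosen after the data were seen (posterior 0.968), put untreated CD11b+ cDC at 7.05, DN cDC at 7.48 and LysoMac at 5.17 (TIM-4-) and 5.82 (TIM-4+). That gave a CD11b+ response of 3.03 ± 0.21 (adjusted p = 3.73e-10). The neighbouring row, which neighbours alone favoured (0.700), held 4.79 in untreated CD11b+ cDC, so the gene's level in the 14 arrays is uncertain.

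B7 ligands and CD40 did not move together. Cd86 was highest in untreated CD8a+ cDC, at 10.66, 10.65 and 10.53, against 8.94, 9.01, 9.16, 9.46 and 9.61 in CD11b+ cDC. It read 8.33, 8.00 and 8.57 in DN cDC, 7.48, 7.89 and 8.02 in TIM-4- and 8.52, 8.26 and 8.25 in TIM-4+ LysoMac. After R848 it read 8.61, 8.44, 8.77, 8.72 and 8.05 in CD8a+ cDC and 9.11, 8.43 and 8.27 in CD11b+ cDC. The untreated CD8a+ arrays stood above all others, and this lead was gone after R848.

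In CD8a+ cDC the Cd86 response was -2.10 ± 0.20 (4.28-fold lower, adjusted p = 1.29e-08), and Cd86 was the only measured member that fell there. The CD11b+ value was -0.63 ± 0.20 (adjusted p = 0.0133), a call lost without R848 replicate 2 or 3 (adjusted p = 0.0679 and 0.106). The responses differed by -1.47 ± 0.28 (adjusted p = 0.000441), opposite in sign to the other called members. Treated CD8a+ and CD11b+ cDC differed by -0.09 ± 0.20 (95% interval -0.50 to 0.32, adjusted p = 0.895). Untreated CD8a+ cDC exceeded CD11b+ cDC by 1.38 ± 0.20 (adjusted p = 8.01e-06), the only member higher there, and LysoMac lay below CD8a+ cDC at -2.55 ± 0.19 (adjusted p = 2.03e-10).

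Cd80 had the smallest span of group means among members measured in all groups, with group means from 7.83 in untreated to 8.87 in R848 CD8a+ cDC. Its arrays read 7.90, 7.74 and 7.87 untreated and 8.84, 8.47, 8.97, 9.05 and 9.03 treated in that subset. These do not overlap, and the rise was 1.04 ± 0.13 (adjusted p = 1.63e-06). CD11b+ cDC gave -0.42 ± 0.13 (adjusted p = 0.0175), a call lost after arrays were shifted to a common median (0.0504), after cyclic loess (0.157) and without R848 CD11b+ replicate 3 (0.155). The responses differed by 1.45 ± 0.19 (adjusted p = 9.32e-06). The gene has another transcript cluster, with lower signal, whose R848 differences were -1.32 in CD11b+ and 0.16 in CD8a+ cDC, against -0.42 and 1.04. The clusters thus disagree on the size of both responses, and 0.16 lies below the median of all genes there (0.19). The other cluster was highest in DN cDC (7.91) and lowest in R848 CD11b+ cDC (6.18), with R848 CD8a+ cDC at 6.66. With the mean of the clusters the responses were -0.87 (adjusted p = 0.00022) in CD11b+ and 0.60 (adjusted p = 0.0038) in CD8a+ cDC.

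Cd40 was lowest in TIM-4+ LysoMac (7.54, 8.02 and 7.69) and highest in R848 CD8a+ cDC (9.95, 9.60, 9.64, 9.63 and 9.82). Untreated CD8a+ arrays read 7.97, 8.01 and 8.30, and untreated CD11b+ arrays 8.98, 8.75, 9.20, 8.97 and 8.99. The CD8a+ subset rose by 1.63 ± 0.12 (3.10-fold, adjusted p = 3.48e-10), and CD11b+ cDC were at 0.20 ± 0.12 (95% interval -0.05 to 0.46, adjusted p = 0.196). The responses differed by 1.43 ± 0.17 (adjusted p = 3.14e-06). LysoMac lay below CD11b+ and DN cDC without overlap, at -0.84 ± 0.09 (adjusted p = 1.12e-07), and -0.19 ± 0.12 from CD8a+ cDC (adjusted p = 0.172, and 0.00278 with arrays at a common median).

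Tnfsf9, the ligand of CD137, went in opposite directions in the cDC subsets. It read 7.22, 6.25, 6.89, 7.03 and 7.69 in untreated CD11b+ cDC and 6.68, 5.98 and 5.47 after R848. In CD8a+ cDC it read 4.41, 5.66 and 5.12 untreated and 7.76, 7.23, 7.58, 7.36 and 7.27 after R848. Treated and untreated arrays overlapped in CD11b+ but not in CD8a+ cDC. The CD8a+ response was 2.38 ± 0.30 (5.19-fold, adjusted p = 1.17e-06) and the CD11b+ response -0.97 ± 0.30 (adjusted p = 0.0129), the latter not called without R848 replicate 3 (adjusted p = 0.112). Their difference of 3.35 ± 0.42 (adjusted p = 6.47e-06) was the largest among these genes and ranked 15 of 17722.

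In LysoMac Tnfsf9 read 3.22, 3.10 and 3.59 (TIM-4-) and 3.23, 3.03 and 3.26 (TIM-4+), below every cDC array. The difference from CD11b+ and DN cDC was -3.06 ± 0.22 (adjusted p = 1.8e-10) and that from CD8a+ cDC -1.83 ± 0.29 (adjusted p = 1.85e-05). The LysoMac values lie below the median of every array. Without detection calls they may be background, so these sizes may understate the difference. DN cDC, at 5.80, 4.99 and 5.96, lay below CD11b+ cDC, at -1.44 ± 0.30 (adjusted p = 0.00474). Untreated CD8a+ cDC did so too, at -1.95 ± 0.30 (adjusted p = 2.16e-05).

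Slamf1 was lowest in LysoMac among the groups where it was measured, at 3.53, 3.76 and 4.08 (TIM-4-) and 3.81, 3.38 and 3.69 (TIM-4+). DN cDC read 7.07, 7.04 and 6.92 and untreated CD11b+ cDC 5.01, 5.24, 6.66, 5.91 and 6.68. LysoMac and these cDC did not overlap, at -2.74 ± 0.22 (adjusted p = 2.03e-09), with LysoMac again below the array medians. DN cDC exceeded CD11b+ cDC by 1.11 ± 0.29 (adjusted p = 0.0302), the only member higher in DN cDC. R848 arrays read 6.83, 6.77 and 6.62 in CD11b+ and 6.19, 6.43, 6.62, 6.77 and 6.75 in CD8a+ cDC, with overlap (-0.19 ± 0.29, adjusted p = 0.83). The CD11b+ response of 0.84 ± 0.29 (adjusted p = 0.0256) was not called without untreated replicate 1 or 2 or R848 replicate 1 or 2 (adjusted p = 0.0626 to 0.08). With its row taken through the other untreated set, again chosen after the data were seen, untreated CD8a+ cDC lay at 3.54 and their response was 3.01 ± 0.28 (adjusted p = 1.17e-08). That level is below the means of both LysoMac groups (3.63 and 3.79), but the difference was not called. LysoMac minus CD8a+ cDC was 0.17 ± 0.27 (adjusted p = 0.628), where the median of all genes was 0.17.

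By group mean the order of Tnfsf9 ran from both LysoMac groups through untreated CD8a+, DN, treated CD11b+ and untreated CD11b+ to treated CD8a+ cDC. Of the neighbours in it, only TIM-4- LysoMac and untreated CD8a+ cDC, and treated and untreated CD11b+ cDC, differed past the threshold. For Cd86, TIM-4- LysoMac, DN cDC, TIM-4+ LysoMac and both treated groups followed each other without a called step. The called steps led up to untreated CD11b+ and then untreated CD8a+ cDC. For Cd80 the only called step was that from untreated CD8a+ to treated CD11b+ cDC. For Cd40 there was none among both LysoMac groups and untreated CD8a+ cDC, nor between untreated and treated CD11b+ cDC.

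**Figure D2:**
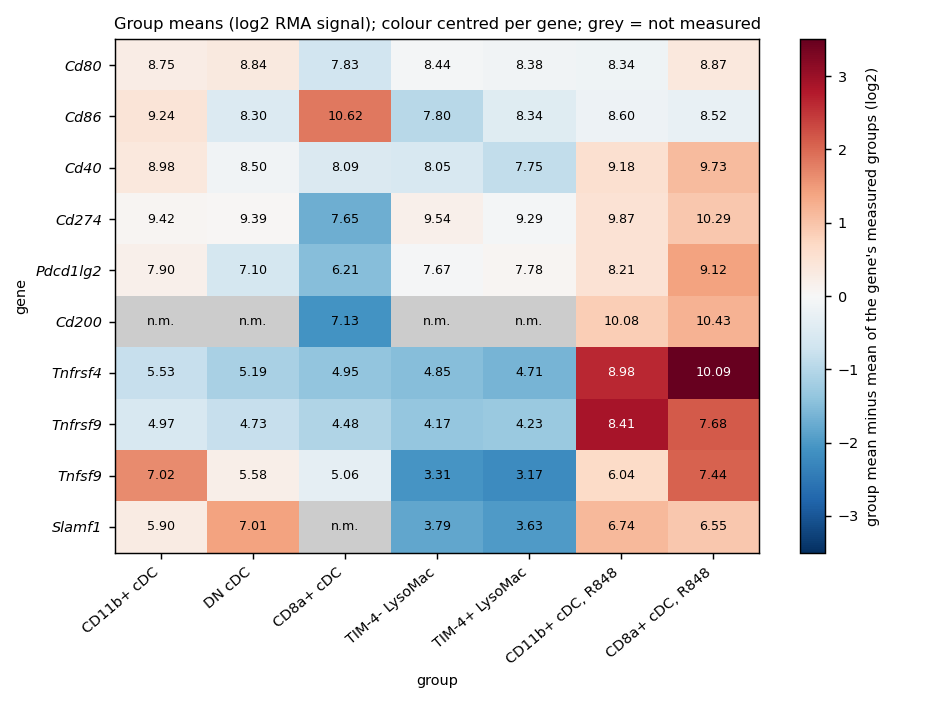
Mean log2 RMA signal of each gene (rows) in each of the 7 groups (columns), printed in the cells, with colour showing the distance from the mean of that gene's measured groups; grey cells were not measured. R848 CD8a+ cDC hold the highest measured mean of Cd80, Cd40, Cd274, Pdcd1lg2, Cd200, Tnfrsf4 and Tnfsf9, and untreated CD8a+ cDC the highest of Cd86. The lead over the next group was not called for Cd80, Cd200 and Tnfsf9 (limma, adjusted p = 0.844, 0.141 and 0.176).

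Counted together, 9 of 9 measured members were called in CD8a+ cDC after R848, 8 higher and 1 lower, where 56.3% of 18685 genes were called (41.9% higher, 14.4% lower). Their median difference was 2.63, against 0.19 for all genes. In CD11b+ cDC 7 of 9 were called, 4 higher and 3 lower, against 40.1% of 18600 genes (17.2% higher, 22.8% lower), with a median of 0.30 against -0.03 for all genes. The CD11b+ count was 4 without R848 replicate 3 and 3 when only the 2 groups compared were fitted, the latter being Cd274, Tnfrsf4 and Tnfrsf9. The responses differed for 7 of 8 members, where 32.6% of 17722 genes differed. The signed CD8a+ response lay above the CD11b+ one for 6 members (26.7% of all genes) and below it for 1, Cd86, whose fall was the greater in CD8a+ cDC (5.87% of all genes). In direct comparison after R848, inside 1 array set, 6 of 10 members were higher in CD8a+ than in CD11b+ cDC and 0 lower, against 12.6% of 19938 genes (5.79% higher, 6.81% lower). The 6 were Cd80, Cd40, Cd274, Pdcd1lg2, Tnfrsf4 and Tnfsf9, with differences from 1.33-fold for Cd274 to 2.63-fold for Tnfsf9. The Cd80 call (0.53 ± 0.13, adjusted p = 0.00842) was lost without R848 CD11b+ replicate 3 (0.107) and when only the groups compared were fitted (0.0796). B cell markers were lower in treated CD8a+ than CD11b+ cDC for 6 of 6 genes (median -1.49). T cell markers had 1 of 8 higher and 1 lower. The part of lymphocyte RNA in this comparison was not tested.

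**Figure D3:**
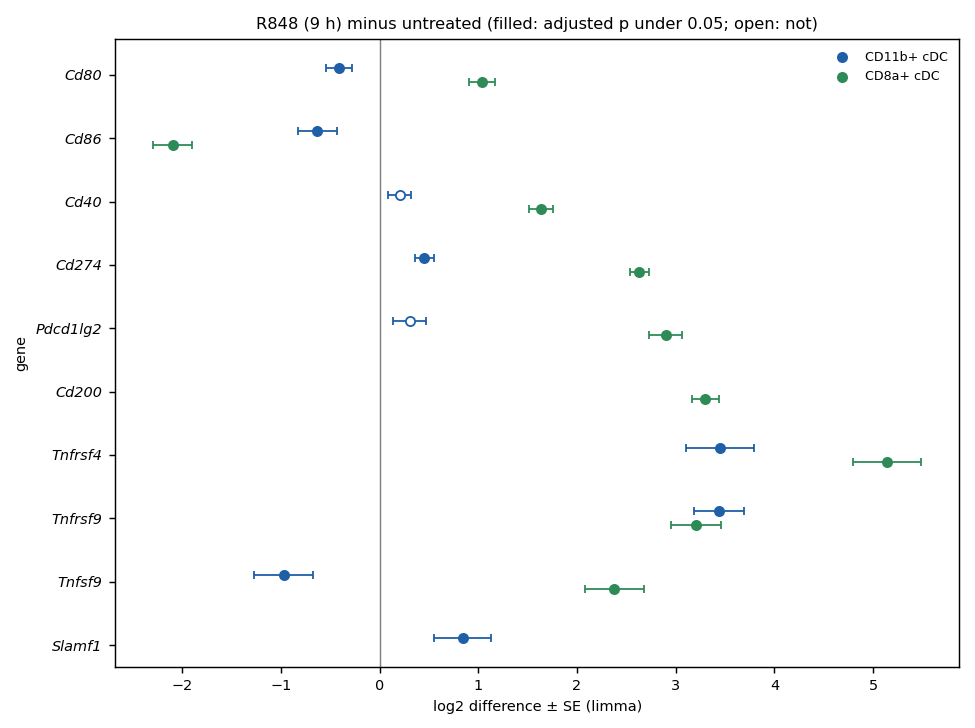
Log2 difference between R848 and untreated arrays (x axis, with SE as bars) of each gene (y axis) in CD11b+ and CD8a+ cDC; filled points were called at an adjusted p under 0.05, and a gene without a point in a subset was not measured there. Tnfrsf9 lies at 3.44 and 3.21, while Tnfsf9 lies at -0.97 in CD11b+ and 2.38 in CD8a+ cDC.

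The share of higher genes among all called genes depended on scaling in the comparisons that cross array sets. It was 74.5% as deposited, 50.6% with arrays at a common median and 51.0% after cyclic loess for the CD8a+ response. For the CD11b+ response it was 43.0%, 56.8% and 51.6%, and for the difference of responses 82.0%, 44.5% and 49.2%. It was 17.9%, 60.7% and 49.6% for untreated CD8a+ against CD11b+ cDC, and 74.0%, 35.9% and 51.5% for LysoMac against CD8a+ cDC. For DN against CD11b+ cDC it was 59.8%, 33.5% and 62.7%. No called member changed sign under either scaling.

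Among untreated cells, 6 of 9 members were lower in LysoMac than in CD11b+ and DN cDC and 0 higher, with 31.9% of 18600 genes called (14.7% higher, 17.1% lower). They were Cd80, Cd86, Cd40, Tnfrsf9, Tnfsf9 and Slamf1, and 3 of them (Cd40, Tnfsf9 and Slamf1) did not overlap, as did 15.2% of all genes. Both PD-1 ligands and Tnfrsf4 were not called. After cyclic loess the Cd80 call was lost (adjusted p = 0.187) and Pdcd1lg2 was higher in LysoMac (0.35, adjusted p = 0.0287). The median of the 9 was -0.65, against 0.00 over all genes. Markers of other cells were lower in LysoMac too, for 8 of 9 stromal and endothelial, 4 of 7 T cell and 3 of 5 B cell genes, with 1 T cell and 1 B cell gene higher. The mean of the T cell list was 4.73 to 5.36 in LysoMac arrays and 5.31 to 6.12 in these cDC, and that of the B cell list 4.77 to 5.21 and 5.44 to 6.32. Stromal and endothelial means were 4.18 to 4.95 in LysoMac, 4.10 to 4.79 in CD11b+ and 6.37 to 6.80 in DN cDC. Their part in the result was not tested. LysoMac against CD8a+ cDC had 3 of 8 members higher (Cd80, Cd274, Pdcd1lg2) and 2 lower (Cd86, Tnfsf9), with 55.0% of 17722 genes called (40.7% higher, 14.3% lower). Cd80 there was at 0.57 ± 0.13 (adjusted p = 0.000801, and 0.0648 with arrays at a common median). T cell markers were higher in LysoMac for 4 of 5 genes, with a mean of 4.01 to 4.18 in CD8a+ cDC, and stromal and endothelial markers for 6 of 9, with a mean of 3.84 to 3.91 in CD8a+ cDC; their part was not tested.

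TIM-4+ and TIM-4- LysoMac differed in 0 of 9 members by limma, where 0.446% of 18600 genes were called (0.172% higher, 0.274% lower), and 3 members (Cd86, Cd40 and Cd274) had an unadjusted p under 0.05. Cd86 was at 0.54 ± 0.22 (adjusted p = 0.683) and Cd274 at -0.25 ± 0.11 (adjusted p = 0.777), both without overlap, as for 10.7% of all genes, and Cd40 at -0.30 ± 0.14 (adjusted p = 0.807). With 3 arrays a side, intervals such as -0.84 to 0.57 for Tnfsf9 leave room for differences of that size.

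DN cDC differed from CD11b+ cDC in 5 of 9 members, where 4.38% of 18600 genes were called (2.62% higher, 1.76% lower). Cd86 (-0.94 ± 0.20), Cd40 (-0.48 ± 0.12), Pdcd1lg2 and Tnfsf9 were lower and Slamf1 was higher, and none of the 5 overlapped between groups, where 9.71% of all genes did not overlap. The count was 0 without DN replicate 2, where their adjusted p ran from 0.0582 to 0.109, and 3 without DN replicate 1 or 3. It was 1 when only the groups compared were fitted. Slamf1 was also lost without CD11b+ replicate 2 or 4 (adjusted p = 0.0563 and 0.0535) and Cd40 without CD11b+ replicate 3 (0.0515). All 9 stromal and endothelial markers were higher in DN cDC, with a mean of 6.37 to 6.80 against 4.10 to 4.79 in CD11b+ cDC. T cell markers had 1 of 7 lower and B cell markers 0 of 5 called. The part of stromal RNA in these differences was not tested.

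Untreated CD8a+ cDC had 5 of 8 members lower than CD11b+ cDC and 1 higher, where 46.8% of 17722 genes were called (8.36% higher, 38.5% lower). Beside those given above, Cd80 was at -0.92 ± 0.13 and Cd40 at -0.88 ± 0.12, with no overlap for any of the 6, where 43.6% of all genes did not overlap. Tnfrsf4 (-0.58 ± 0.35, adjusted p = 0.175) and Tnfrsf9 (-0.50 ± 0.25, adjusted p = 0.11) were not called, and without untreated CD11b+ replicate 4 Tnfrsf4 was (adjusted p = 0.0151), without replicate 3 Tnfrsf9 (adjusted p = 0.0326). T cell markers were lower in CD8a+ cDC for 4 of 5 genes, NK cell and ILC markers for 4 of 5 with 1 higher, B cell markers for 2 of 4 and stromal and endothelial markers for 3 of 9. Their part in these differences was not tested.

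**Figure D4:**
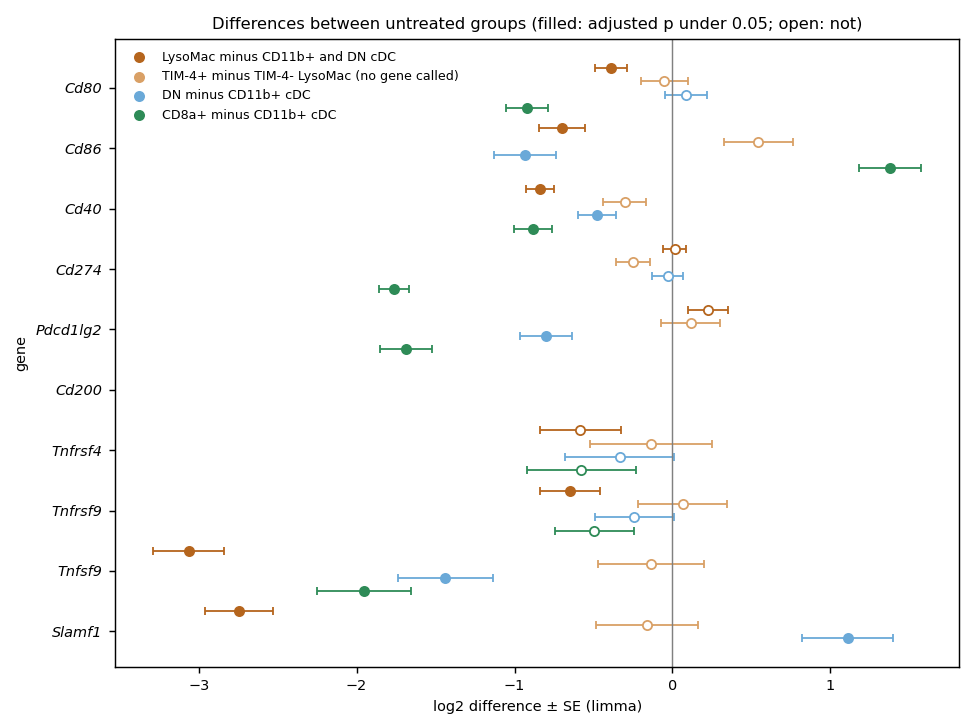
Log2 differences between untreated groups (x axis, with SE as bars) for each gene (y axis) in 4 comparisons; filled points were called at an adjusted p under 0.05, open points were not, and genes without a point were not measured. Tnfsf9 lies left of 0 in all 4, at -3.06 for LysoMac against CD11b+ and DN cDC, and Cd86 is the only gene right of 0 for CD8a+ against CD11b+ cDC (1.38).

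Other genes of co-stimulation and checkpoints, a list of 39 B7, TNF and SLAM family genes and their receptors, were split in direction. After R848 9 of 34 measured rose and 11 fell in CD11b+ cDC, against 17.2% and 22.8% of all genes, with a median of -0.08 (-0.03 over all genes). The largest were the inhibitory receptors Havcr2 (TIM-3, -2.39 ± 0.17) and Cd244a (-1.89 ± 0.19), the SLAM family member Slamf8 (-1.85 ± 0.27) and the T cell co-stimulator Icos (1.62 ± 0.17). In CD8a+ cDC 17 of 35 rose and 9 fell, against 41.9% and 14.4% of all genes, with a median of 0.27 (0.19 over all genes), so the share that rose was near that of all genes. Havcr2 (-3.60 ± 0.17) and Slamf8 (-3.09 ± 0.27) were lower, and Pvr, a ligand of TIGIT and CD226 (3.53 ± 0.18), and Icosl, the ligand of ICOS (2.19 ± 0.21), were higher. The signed CD8a+ response lay above the CD11b+ one for 10 of 31 genes (26.7% of all genes), among them Tnfrsf18 (GITR, by 1.64 ± 0.32) and Tnfrsf14 (HVEM, 2.82-fold). It lay below for 5 (5.87% of all genes), among them Slamf9 (-1.63 ± 0.35) and Ly9 (-1.43 ± 0.26), which both fell in CD8a+ cDC, at -1.88 and -1.24, and were not called in CD11b+ cDC (-0.25 and 0.19). In R848 cells 5 of 38 were higher and 6 lower in CD8a+ cDC, against 5.79% and 6.81% of all genes, with Cd244a at -2.33 ± 0.19, Pvr at 1.89 ± 0.18, Cd84 at -1.44 ± 0.26 and Cd48 at -1.08 ± 0.24.

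In untreated cells 14 of 34 of these genes were higher and 9 lower in LysoMac than in CD11b+ and DN cDC, against 14.7% and 17.1% of all genes. Btla, an inhibitory receptor (-4.01 ± 0.13), Icosl (-2.62 ± 0.16) and Cd244a (-2.48 ± 0.14) were lower and Slamf9 (2.75 ± 0.19) higher. Against CD8a+ cDC 13 of 31 were higher, close to the 40.7% of all genes, and 7 lower, against 14.3%, led by Btla (-5.30 ± 0.17), Slamf6 (3.55 ± 0.36), Lgals9 (3.23 ± 0.25) and Nectin2 (2.93 ± 0.18). CD8a+ against CD11b+ cDC had 5 of 31 higher and 13 lower, against 8.36% and 38.5% of all genes, the lower ones near that share, the largest being Lgals9 (-2.01 ± 0.26), Tnfrsf18 (-1.60 ± 0.22), Nectin2 (-1.59 ± 0.19) and Icosl (-1.13 ± 0.21). DN against CD11b+ cDC, with 2.62% of all genes higher and 1.76% lower, had 2 of 34 higher, Ly9 (1.15 ± 0.18) and Lag3 (0.78 ± 0.18), and 2 lower, Slamf8 (-1.08 ± 0.27) and Cd200r1, the receptor of CD200 (-0.47 ± 0.13). TIM-4+ against TIM-4- LysoMac, with 0.274% of all genes lower, had 1 of 34 lower, Cd244a (-1.30 ± 0.21, adjusted p = 0.00359).

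Maturation and NF-kappaB genes, a list of 22, were higher after R848 for 14 of 20 measured in CD11b+ cDC and lower for 4, against 17.2% and 22.8% of all genes, with a median of 0.74. Il15 (4.56 ± 0.27), a cytokine presented to T and NK cells, its receptor chain Il15ra (2.71 ± 0.11) and Socs2 (2.74 ± 0.27), an inhibitor of cytokine signalling, were the largest. In CD8a+ cDC 14 of 18 rose and 2 fell, against 41.9% and 14.4% of all genes, with a median of 1.46, led by Socs2 (5.44 ± 0.27), Il15 (4.24 ± 0.27) and the chemokine Ccl5 (3.84 ± 0.41). The signed CD8a+ response lay above the CD11b+ one for 12 of 17, against 26.7% of all genes, with Socs2 at 2.70 ± 0.39 and Ccl5 at 1.88 ± 0.58. It lay below for 2, against 5.87%, with Ccl17 at -2.59 ± 0.40, a chemokine that fell in CD8a+ cDC (-2.85 ± 0.28) and was not called in CD11b+ cDC (-0.26 ± 0.28). In untreated cells 12 of 17 were lower and 3 higher in CD8a+ than in CD11b+ cDC, against 38.5% and 8.36% of all genes. After R848 4 of 21 were higher and 2 lower, against 5.79% and 6.81%. Socs2 was at 5.02 in CD8a+ and 7.77 in CD11b+ cDC untreated, and at 10.46 and 10.51 after R848. Untreated DN cDC had 9 of 20 lower than CD11b+ cDC and 0 higher, against 1.76% and 2.62% of all genes, with Ccl17 at -2.23 ± 0.28, Ccl22 at -2.04 ± 0.29 and Ccr7, the receptor for migration to T cell zones, at -1.73 ± 0.29. LysoMac against CD11b+ and DN cDC had 8 of 20 lower, such as Ccr7 (-3.95 ± 0.22), Ccl22 (-3.53 ± 0.21) and Cd83 (-2.80 ± 0.13), and 6 higher, against 17.1% and 14.7% of all genes.

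Genes most like each member over the 7 group means were sought among 5537 genes measured in all groups whose means spanned at least 1 log2 unit. Tnfrsf4 was most like Adcy6 (r = 0.998) and Clec2i (0.997), and Tnfrsf9 most like Zfp866 (0.996) and the B cell gene Pou2af1 (0.995). Cd274 was most like Krt34 (0.983) and Gnptab (0.982), and Pdcd1lg2 most like Zfand3 (0.985) and Samd4b (0.984). Cd40 was nearest to Nfkbib (0.983), an inhibitor of NF-kappaB, and Cop1 (0.978). Cd86 was nearest to Lars (0.981) and Inip (0.977), Tnfsf9 to Smagp (0.973) and Csrnp1 (0.971), and Cd80 to Prpf39 (0.958) and Lmbr1l (0.947). Among the members Tnfrsf4 and Tnfrsf9 correlated at 0.964, Cd40 and Tnfsf9 at 0.910, and Cd86 and Cd274 at -0.793. With 7 points and 5537 genes, such values are a description only.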

How the data were processed

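The deposited values are log2 signals that the authors computed with RMA in Affymetrix Expression Console 1.4.1, per the submitters' processing notes, from 2 to 20 ng of amplified total RNA, per the labels' protocols. The build behind the probe annotation, and whether RMA was run once over all arrays, is not stated in the labels. All columns were used. Of 35556 rows, the 6617 before the first annotated row were left out. The rows of both untreated sets were aligned to the R848 arrays by summing over all order-keeping alignments within 260 rows, with match odds over 24 level bins, and partners with a posterior of 0.95 or more were accepted. The match uses levels of the same cell type treated and untreated, so it can favour rows with small responses. As deposited, rows correlated across sets at 0.0232 and 0.0504, and after pairing at 0.969 and 0.953, which the matching itself raises. Both clusters of one gene correlated at 0.804 and 0.787 after pairing, against 0.796 in the R848 arrays. The matching did not use gene names but did use these levels, so it can raise these values too. On simulated data at most 0.207% of accepted partners were wrong and 92.5% to 94.3% of changed rows were accepted; the simulation stayed inside 1 array set, so real errors may be more frequent.

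Rows with 1 symbol were kept. A gene took the transcript cluster present on most arrays and then the highest in mean. limma 3.58.1 in R 4.3.3 fitted 1 mean per group over all 7 groups, without arrays that lacked the gene, and p-values were adjusted over all genes tested (Benjamini-Hochberg). Tested on simulated data, 88 to 96 of 100 genes changed by 1 log2 unit were recovered in each comparison of 2 sets of groups; the difference of responses was not simulated. The labels call the replicates independent, and each pools 42 mice. The number of arrays limits the precision, and no detection call was used, so low levels may be background. Alternatives were other scalings, fits, filters and pairings, a replicate block and leaving out each array. Members and lists were chosen with earlier results of these data known. All 10 members are named; of the co-stimulation list at most 4 called genes with the largest difference per comparison, of the maturation list at most 3, and for each member measured in all groups the 2 most similar genes. Marker lists of cDC1, cDC2, macrophages, dendritic, T, B, NK, plasmacytoid, stromal and epithelial cells were measured; plasmacytoid and epithelial markers had 2 of 6 and 3 of 6 genes lower in CD11b+ cDC after R848. Of the cDC2 markers 3 of 6 were lower there, and of the cDC1 markers 6 of 7 in CD8a+ cDC after R848. Over all genes 22.8% were lower in CD11b+ and 14.4% in CD8a+ cDC after R848.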

Additional observations from a re-analysis of the deposited data

Results flagged for a closer look

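On 1 array of R848 CD8a+ cDC, replicate 5, Cd274 read 10.57, apart from the other 4 arrays of its group at 10.15 to 10.26. In all, 19 sets, each of 1 gene in 1 group of 4 or more arrays, were screened for such a value, and chance flags about 1 in 20 sets. Only untreated CD11b+ and R848 CD8a+ cDC have that many arrays.

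The response to R848 differed between CD8a+ and CD11b+ cDC, by the test of the difference itself, in 7 of 8 members. The CD8a+ response minus the CD11b+ response was above 0 for Tnfsf9 (3.35), Pdcd1lg2 (2.60), Cd274 (2.18), Tnfrsf4 (1.69), Cd80 (1.45) and Cd40 (1.43), and below 0 for Cd86 (-1.47), which fell more in CD8a+ (-2.10) than in CD11b+ cDC (-0.63), all in log2 units. Background is 32.6% of 17722 genes, with the difference above 0 for 26.7% and below 0 for 5.87%. The untreated CD8a+ arrays form an array set of their own, and set and group cannot be told apart in these differences. Across the alternatives in which they were measured, the 7 differences kept their sign and their calls, and the largest adjusted p was 0.0469, for Tnfrsf4. Cd274 and Pdcd1lg2 were not measured with partners accepted at a posterior of 0.99, nor Cd40 with partners from neighbouring rows alone.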

How the results depend on the processing

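Over 1504 values of single members under the alternatives, 1433 kept direction and call, 42 lost and 13 gained a call, and 16 changed sign, all of them differences called in neither fit. Of 175 counts of called members, 167 stayed within 1.5 times. For DN against CD11b+ cDC the count of 5 became 3 after cyclic loess, where Cd40 lost its call (adjusted p = 0.117) and Slamf1 was not measured. The count was 1 when only the groups compared were fitted, and 0 to 5 with 1 array left out. Without DN replicate 2, 0 were called. For the CD11b+ response the count of 7 became 3 when only the groups compared were fitted and 4 to 7 with 1 array left out. For LysoMac against CD8a+ cDC 5 became 3 at a posterior of 0.99, where 5 members were measured, an alternative chosen after the data were seen, like the route through the other untreated set. Sign changes among uncalled values were Cd274 in DN against CD11b+ cDC (0.075 after cyclic loess, 0.0050 with the block) and Cd80 in TIM-4+ against TIM-4- LysoMac (0.013 with the mean of clusters). With 1 array left out they were -0.013 to 0.048 for Cd274 in LysoMac against CD11b+ and DN cDC and -0.064 to 0.00998 in DN against CD11b+ cDC; in TIM-4+ against TIM-4- LysoMac -0.22 to 0.023 for Tnfrsf4, -0.072 to 0.23 for Pdcd1lg2, -0.016 to 0.18 for Tnfrsf9, -0.24 to 0.0063 for Tnfsf9 and -0.095 to 0.013 for Cd80; -0.25 to 0.17 for Cd86 after R848, and -0.45 to 0.071 for the difference of Tnfrsf9 responses. Whether the replicate numbers of the titles pair the samples was not settled. Deviations of the 65 same-numbered pairs correlated at -0.23 to 0.18, and 10 exceeded 0.1. Between untreated CD11b+ cDC, DN cDC and both LysoMac groups they correlated at 0.10 to 0.18 for replicate 1. They did so at -0.09 to 0.09 for replicate 2 and at -0.02 to 0.14 for replicate 3. Pairs with unlike numbers were not compared. With the replicate block, which called Tnfrsf4 lower in LysoMac than in CD11b+ and DN cDC (-0.75, adjusted p = 0.0192) and in untreated CD8a+ than CD11b+ cDC (-0.91, 0.0288), the counts were 7 for LysoMac against CD11b+ and DN cDC, 4 for DN cDC, 7 for untreated CD8a+ against CD11b+ cDC and 7 after R848. Small differences between groups of 3 arrays are beyond the precision of these data.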
